A study of Mus musculus with 6 samples.

Results

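The genes described here are 9 markers of megakaryocytes and platelets, namely Pf4, Ppbp, Gp9, Gp5, Gp1ba, Gp1bb, Itga2b, Itgb3 and Vwf. These genes, and the lists used below, were chosen with earlier results of these data known. The 9 genes were taken by name, and every probe set whose platform annotation gives 1 symbol from this list was used. That gave 10 probe sets for 8 genes, out of 45037 probe sets and 18193 genes on the array. Gp1bb and Itgb3 have 2 probe sets each and the other 6 genes 1 each. Gp1ba is named by 0 of the listed probe sets, and its expression is not analysed here. A further probe set that carries the symbols of both Gp1bb and Septin5 was left out because its signal cannot be given to 1 gene. RNA was measured in spleens of adult F1 females of 2 crosses that share the FVB/NJ parent, and each spleen sample was hybridised to 1 Affymetrix array. The other parent was AKR/J in 3 samples, called AKR/J F1 below, and DBA/2J in 3 samples, called DBA/2J F1. All animals were anaesthetised with Avertin before they were killed, no other treatment is given, and the crosses were compared to find differences present at baseline. The labels do not say whether any sample was pooled, so the p-values measure the spread between these 6 samples. Below, a spleen means 1 such sample on 1 array.

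Megakaryocytes are large polyploid cells that shed platelets, and in mice they reside in the red pulp of the spleen as well as in the bone marrow. The spleen also stores circulating platelets, which carry messenger RNA from their parent cells. The glycoprotein Ib-IX-V complex on platelets binds von Willebrand factor on a damaged vessel wall, the integrin of the alpha IIb and beta 3 chains binds fibrinogen and links platelets to each other, and alpha granules release chemokines and adhesive proteins. The transcription factors GATA1 and FLI1, an ETS family member, are known to act on the promoters of many megakaryocyte genes. In whole spleen, fewer cells of a type and less RNA per cell cannot be told apart.

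The promoters of 4 of these genes are shown. Of the measured genes with a promoter at hand, these 4 lay nearest the median profile over the 6 spleens. Their distances, defined below, were 0.034 to 0.057, and Gp1bb followed at 0.067 by its brighter probe set. The choice was made after the profiles were seen, and no link between motifs and profile was tested. Each line gives the 250 bases before the transcript start, 5′ to 3′ on the gene's strand, from RefSeq on GRCm38.p6. Capitals mark GATA motifs (AGATAA or TGATAA) and ETS motifs (AGGAAG or CGGAAG), searched on both strands, so that CTTCCT and TTATCT are matches on the opposite strand. No match of one motif overlaps a match of the other.
Pf4, chr5:90772185-90772434, plus strand: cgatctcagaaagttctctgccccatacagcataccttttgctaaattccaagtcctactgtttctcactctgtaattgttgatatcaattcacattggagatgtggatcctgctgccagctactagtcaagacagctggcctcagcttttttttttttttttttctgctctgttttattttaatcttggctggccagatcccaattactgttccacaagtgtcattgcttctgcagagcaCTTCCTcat
Gp9, chr6:87777820-87778069, plus strand: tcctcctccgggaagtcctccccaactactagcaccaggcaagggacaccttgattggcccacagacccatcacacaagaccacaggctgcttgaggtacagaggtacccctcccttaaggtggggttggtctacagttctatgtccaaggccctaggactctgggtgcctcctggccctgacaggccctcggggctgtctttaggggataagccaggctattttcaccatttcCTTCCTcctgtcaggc
Gp5, chr16:30310782-30311031, minus strand: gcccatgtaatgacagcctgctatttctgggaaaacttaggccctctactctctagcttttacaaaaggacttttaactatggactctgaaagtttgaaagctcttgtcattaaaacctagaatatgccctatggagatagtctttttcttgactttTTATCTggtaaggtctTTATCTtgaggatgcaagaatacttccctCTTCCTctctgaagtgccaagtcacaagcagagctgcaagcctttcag
Itga2b, chr11:102469884-102470133, minus strand: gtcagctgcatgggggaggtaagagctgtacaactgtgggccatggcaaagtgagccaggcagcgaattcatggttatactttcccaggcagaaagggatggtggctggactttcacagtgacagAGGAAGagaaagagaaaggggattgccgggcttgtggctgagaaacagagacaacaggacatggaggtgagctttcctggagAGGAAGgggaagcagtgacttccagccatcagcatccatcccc
The ETS match began 9 bases before the start in Pf4, 16 bases before it in Gp9 and 48 bases before it in Gp5, and Itga2b had 2 such matches, at 125 and 43 bases before the start. Gp5 also had 2 GATA matches, at 93 and 77 bases before the start, and the GATA match of Pf4 lay 37 bases after the start, outside the stretch shown. Promoters were at hand for 7 of the 9 genes (Itgb3 and Vwf were not among them). Over windows of 300 bases, which run to 50 bases after the start, 6 of the 7 genes held an ETS motif, against 46.5% of 32851 promoter windows of the same length. The gene without it was Ppbp, which had no GATA motif either. A GATA motif was present in 3 of the 7 (Pf4, Gp5 and Gp1ba), against 18.6% of those windows. Gp1ba, which has no expression value here, is counted among the 7 and held both motifs. These matches are a description of the sequence and do not show that a factor binds there.

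The values are log2 expression summaries that the authors had brought to a common scale, with array medians between 5.04 and 5.10. Differences are given as AKR/J F1 minus DBA/2J F1 throughout, and a negative value means a lower level in AKR/J F1 spleens. Each was tested with limma, which pools the spread between replicates across probe sets, and a difference passed at an adjusted p (Benjamini-Hochberg over all 45037 probe sets) under 0.05. The samples had the lymphocyte markers of spleen, for example Cd79a of B cells at 12.03 in AKR/J F1 spleens and 11.67 in DBA/2J F1 spleens. The arrays differed in 7 pancreatic acinar genes. Their mean level was 13.86 to 13.90 in AKR/J F1 spleens and 13.31 and 13.70 in DBA/2J F1 replicates 1 and 2. In DBA/2J F1 replicate 3 it was 6.38. All arrays but that one therefore carried a high signal of genes of another organ. The signal at the 3′ end minus that at the 5′ end, a sign of RNA integrity, was -0.19 to -0.15 for the Gapdh control in AKR/J F1 spleens and -0.23 to -0.22 in DBA/2J F1 spleens. For the actin control it was 0.34 to 0.48 in AKR/J F1 spleens and 0.30 to 0.36 in DBA/2J F1 spleens. Neither was tested for its part in the results below.

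Of the 10 probe sets, 9 did not pass the test of a difference between the crosses. All 10 had a lower mean in AKR/J F1 spleens, against 53.2% of all probe sets, although the sign for Vwf turned with arrays centred on their median (0.026). The 1 that passed was an Itgb3 probe set, lower in AKR/J F1 spleens. Across the array 10.4% of all probe sets passed in either direction, 5.26% passed in that direction and 5.14% in the opposite one, in which 0 of the 10 passed. At an unadjusted p under 0.05 in limma, 5 of the 10 were lower in AKR/J F1 spleens, against 15.8% of all probe sets. The median difference of the 10 was -0.29, with a range from -0.48 to -0.0059, and the median over all probe sets was -0.018. The 3 AKR/J F1 arrays all lay below the 3 DBA/2J F1 arrays for 3 of the 10, against 18.3% of all probe sets. All 10 lay above the 40th percentile of mean level, so no member fell to a filter on low values. Because the 10 profiles resemble each other, they are not 10 independent results.

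**Figure D1:**
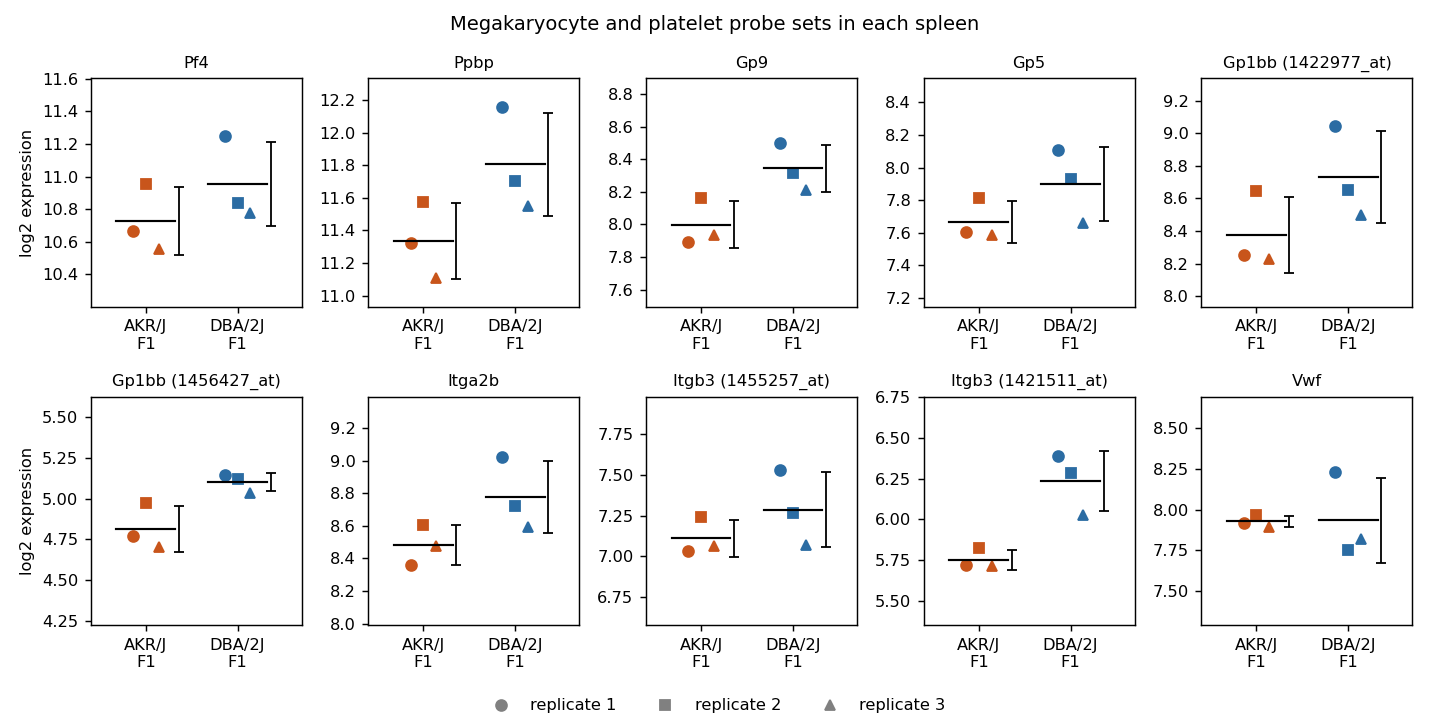
Log2 expression of the 10 probe sets, 1 panel each, in AKR/J F1 spleens (left, orange) and DBA/2J F1 spleens (right, blue), with 1 point per spleen, the mean as a line and the SD as a bar (n = 3 each); every panel spans the same log2 range. Replicate 2 is the highest AKR/J F1 spleen and replicate 1 the highest DBA/2J F1 spleen in all 10 panels.

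Pf4 and Ppbp encode chemokines of the alpha granule, platelet factor 4 and pro-platelet basic protein, and are next to each other on chromosome 5. Pf4 stood at 10.67, 10.96 and 10.56 in AKR/J F1 replicates 1, 2 and 3, against 11.25, 10.84 and 10.78 in DBA/2J F1 spleens. The AKR/J F1 replicate 2 value lay above 2 of the 3 DBA/2J F1 values, so the crosses overlapped. The Pf4 difference was -0.23 ± 0.15 (SE, n = 3 each; adjusted p = 0.338 in limma), with a 95% confidence interval from -0.57 to 0.12. It was -0.079 without DBA/2J F1 replicate 1, -0.14 without AKR/J F1 replicate 3, -0.34 without AKR/J F1 replicate 2 and -0.13 with array weights. Ppbp stood at 11.32, 11.58 and 11.11 in AKR/J F1 spleens, against 12.16, 11.71 and 11.55 in DBA/2J F1 spleens. The crosses overlapped by 0.024, between AKR/J F1 replicate 2 and DBA/2J F1 replicate 3. The Ppbp difference was -0.47 ± 0.17, which is 1.38-fold higher in DBA/2J F1 spleens, and it did not pass (adjusted p = 0.112 in limma; interval -0.87 to -0.07). Without DBA/2J F1 replicate 1 it was -0.29.

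Gp9, Gp5 and Gp1bb encode 3 of the 4 chains of the Ib-IX-V complex, the fourth being Gp1ba, whose expression is not analysed here. Gp9, the glycoprotein IX chain, stood at 7.89, 8.16 and 7.94 in AKR/J F1 spleens, against 8.50, 8.32 and 8.21 in DBA/2J F1 spleens. The 3 AKR/J F1 spleens were all lower, by a gap of 0.051, and the difference of -0.35 ± 0.11 did not pass (adjusted p = 0.0768 in limma; interval -0.60 to -0.10). Gp5, the glycoprotein V chain, stood at 7.60, 7.81 and 7.58 in AKR/J F1 spleens, against 8.11, 7.93 and 7.66 in DBA/2J F1 spleens. The lowest DBA/2J F1 spleen, replicate 3, lay among the AKR/J F1 spleens, and the Gp5 difference was -0.23 ± 0.13 (adjusted p = 0.247; interval -0.52 to 0.06). It was -0.13 without DBA/2J F1 replicate 1 and -0.35 without replicate 3.

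Gp1bb, the beta chain of glycoprotein Ib, was read by probe sets 1422977_at and 1456427_at. The first gave 8.25, 8.64 and 8.23 in AKR/J F1 spleens, against 9.05, 8.65 and 8.50 in DBA/2J F1 spleens. The second gave 4.77, 4.97 and 4.70 in AKR/J F1 spleens, against 5.15, 5.12 and 5.04 in DBA/2J F1 spleens. The crosses overlapped for the first probe set of Gp1bb and did not overlap for the second. The differences were -0.36 ± 0.16 (adjusted p = 0.182; interval -0.73 to 0.02) and -0.29 ± 0.09 (adjusted p = 0.0836; interval -0.51 to -0.07), and neither passed. Without DBA/2J F1 replicate 1 the first was -0.20. The distance between the 2 Gp1bb probe sets differed by -0.068 as AKR/J minus DBA/2J (two-sided exact permutation p = 0.8, n = 3 each). The smallest p of that permutation test is 0.1, so it could not pass at any outcome.

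Itga2b encodes the alpha IIb chain, known as CD41, which marks the megakaryocyte lineage from early stages. It stood at 8.36, 8.61 and 8.47 in AKR/J F1 spleens, against 9.02, 8.72 and 8.59 in DBA/2J F1 spleens. AKR/J F1 replicate 2 and DBA/2J F1 replicate 3 were level to within 0.017, and the Itga2b difference of -0.30 ± 0.12 did not pass (adjusted p = 0.150; interval -0.58 to -0.011). Without DBA/2J F1 replicate 1 it was -0.17.

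Itgb3 encodes the beta 3 chain, which pairs with alpha IIb in platelets and with the alpha V chain in other cells such as macrophages and endothelium. Its probe set 1421511_at stood at 5.72, 5.82 and 5.71 in AKR/J F1 spleens, against 6.39, 6.28 and 6.03 in DBA/2J F1 spleens. The AKR/J F1 spleens were all lower, by a gap of 0.21, and close to each other (5.75 ± 0.06, SD, n = 3, against 6.23 ± 0.18 in DBA/2J F1 spleens, n = 3). The difference of this Itgb3 signal was -0.48 ± 0.11 (SE), that is 1.40-fold higher in DBA/2J F1 spleens, and passed (adjusted p = 0.0314 in limma; interval -0.72 to -0.24). The call did not hold with 5 of the 6 arrays left out in turn: limma gave adjusted p = 0.0949, 0.0664 and 0.0882 without AKR/J F1 replicates 1, 2 and 3, and 0.0523 and 0.0956 without DBA/2J F1 replicates 1 and 2. It was 0.0290 without DBA/2J F1 replicate 3.

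The other Itgb3 probe set, 1455257_at, stood at 7.03, 7.24 and 7.06 in AKR/J F1 spleens, against 7.53, 7.27 and 7.07 in DBA/2J F1 spleens. Here the crosses overlapped, and the difference was -0.18 ± 0.13 (adjusted p = 0.366; interval -0.47 to 0.11). It was -0.057 without DBA/2J F1 replicate 1, -0.29 without replicate 3 and -0.11 with array weights. Within each array 1455257_at lay above 1421511_at by 1.31, 1.42 and 1.35 in AKR/J F1 spleens and by 1.14, 0.98 and 1.04 in DBA/2J F1 spleens. That distance was larger in every AKR/J F1 spleen, by 0.30 on average. The two-sided exact permutation p of 0.1 is the smallest that 3 against 3 spleens allow, so that test could not pass at any outcome. The distance was looked at after the values of both probe sets were seen. With the mean of both probe sets the Itgb3 difference was -0.33 (adjusted p = 0.0786 over genes in limma).

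Vwf encodes von Willebrand factor, the ligand of the Ib-IX-V complex, which endothelial cells make as well as megakaryocytes. Vwf stood at 7.92, 7.97 and 7.89 in AKR/J F1 spleens, against 8.23, 7.75 and 7.82 in DBA/2J F1 spleens. The DBA/2J F1 spleens lay on both sides of the AKR/J F1 spleens, and the difference was -0.0059 ± 0.13 (adjusted p = 0.980; interval -0.30 to 0.28). The Vwf difference was 0.14 without DBA/2J F1 replicate 1 and 0.010 without AKR/J F1 replicate 3. Of 10 endothelial marker genes, all 10 had a higher mean in AKR/J F1 spleens (9 after quantile normalization), and 2 passed, the vascular receptor genes Tek (0.43, adjusted p = 0.0270) and Kdr (0.38, adjusted p = 0.0368). Plvap, a protein of endothelial diaphragms, did not pass (0.27, adjusted p = 0.0782). Of genes tested by their brightest probe set, 6.29% passed as higher in AKR/J F1 spleens. Neither Tek nor Kdr passed in limma without any 1 of the AKR/J F1 replicates or without DBA/2J F1 replicate 2, and Tek alone of the list passed without DBA/2J F1 replicate 3. The mean level of the endothelial list was 7.75 to 7.85 in AKR/J F1 spleens and 7.50 to 7.67 in DBA/2J F1 spleens, and its part in the Vwf values was not tested.

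**Figure D2:**
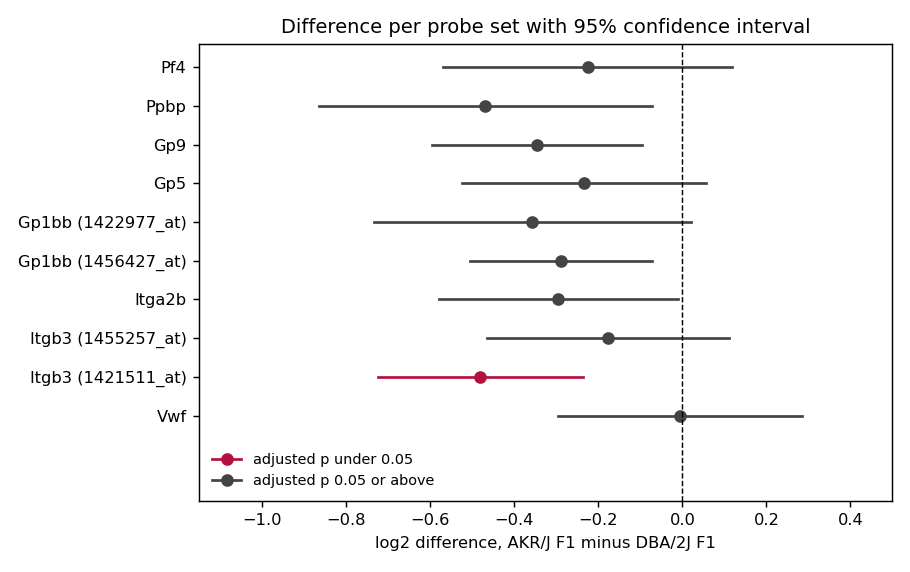
Log2 difference between the AKR/J and DBA/2J F1 spleens for each probe set (points) with the 95% confidence interval from limma (lines, n = 3 each), red where the adjusted p is under 0.05. All 10 points lie below 0, from -0.48 for Itgb3 (1421511_at) to -0.0059 for Vwf (0.026 with arrays centred on their median), and the interval includes 0 for 5 of them.

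The spread within each cross was shared by these genes. Replicate 2 was the highest of the AKR/J F1 spleens for all 10 probe sets, and replicate 1 was the highest of the DBA/2J F1 spleens for all 10. Across the array, 10.3% of probe sets had that pair of highest spleens, which was chosen after the values were seen. Of the 39 platelet pathway genes described below 20 had it, against 10.6% of genes by their brightest probe set, whereas 0 of 10 endothelial, 0 of 9 erythroid, 0 of 8 dividing cell, 0 of 7 pancreatic acinar, 0 of 6 stem and progenitor and 0 of 5 B and T cell genes had it. Of 5 basophil and mast cell genes 1 had it, Mcpt8. Among the DBA/2J F1 spleens, replicate 3 was the lowest for 9 of the 10, with Vwf the exception. In AKR/J F1 spleens replicate 3 was lowest for 7 and replicate 1 for 3. As the median deviation from each probe set's own mean over 6 arrays, the AKR/J F1 spleens stood at -0.22, 0.020 and -0.24 and the DBA/2J F1 spleens at 0.36, 0.12 and -0.048 in replicates 1, 2 and 3. The highest AKR/J F1 spleen therefore lay above the lowest DBA/2J F1 spleen. Without DBA/2J F1 replicate 1 the median difference of the 10 was -0.19, the smallest in size of the 6 values with 1 array left out, and without replicate 3 of that cross it was -0.37, the largest.

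The genes whose profile over the 6 spleens was most like the median profile of the 8 genes were sought among 12849 other genes at or above the 40th percentile of level. Likeness was the mean absolute distance between profiles, each minus its own mean, on the log2 scale. The nearest was F2rl2, which encodes the thrombin receptor PAR3 of mouse platelets, at a distance of 0.018. It stood at 6.16, 6.47 and 6.18 in AKR/J F1 spleens, against 6.79, 6.50 and 6.34 in DBA/2J F1 spleens (difference -0.27, adjusted p = 0.208). Hsd17b14, a steroid dehydrogenase gene, Kcnab3, a potassium channel subunit gene, and Dnm1, the dynamin of synaptic endocytosis, followed at 0.022, 0.034 and 0.036. Hsd17b14 and Kcnab3 had low mean levels, 4.55 and 4.62, not far above the 40th percentile at 4.33. The fifth was Treml1, which encodes a receptor of platelet alpha granules, at 0.037. Treml1 stood at 7.44, 7.74 and 7.46 in AKR/J F1 spleens, against 8.14, 7.73 and 7.62 in DBA/2J F1 spleens (difference -0.28, adjusted p = 0.231). F2rl2 and Treml1 were both on the list of other platelet genes described next, and the next gene of that list, Clec1b, the podoplanin receptor of platelets, had rank 26. Among the members' own probe sets, the distance ran from 0.034 for Gp5 to 0.13 for Vwf. The median profile was made from these same genes, so their distances cannot be set against those of other genes.

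**Figure D3:**
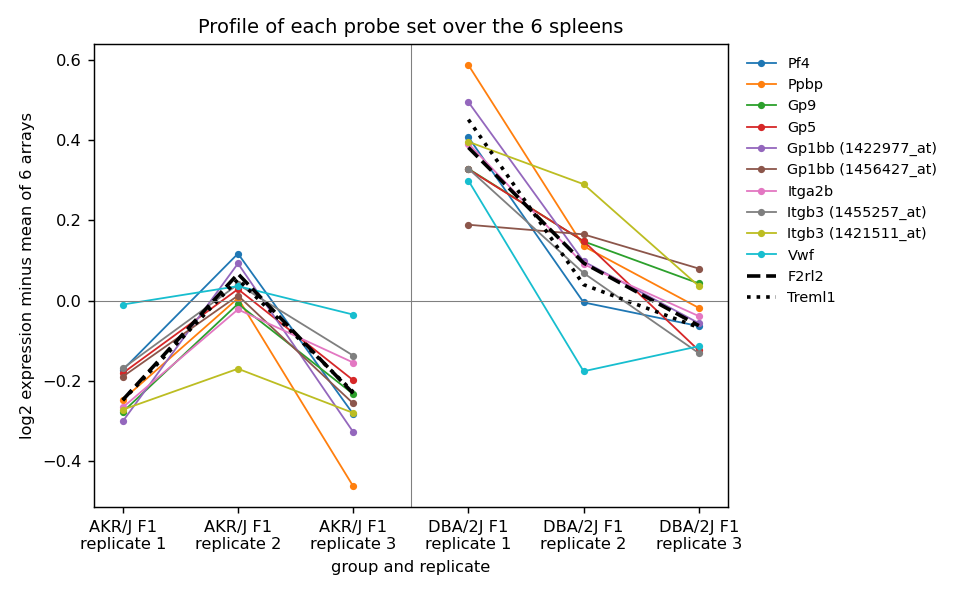
Log2 expression minus the mean of 6 arrays for the 10 probe sets (coloured lines) and for F2rl2 and Treml1 (black dashed and dotted lines) in the AKR/J F1 spleens (left) and the DBA/2J F1 spleens (right). Lines join the values of 1 probe set within a cross and imply no order of the replicates. All have AKR/J F1 replicate 2 and DBA/2J F1 replicate 1 highest. For F2rl2 and Treml1 this follows from their choice as near profiles. Hsd17b14, Kcnab3 and Dnm1, which are not on the platelet list, lay nearer than Treml1 with the same highest spleens, and are not drawn.

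A list of 39 other measured genes of the platelet pathway was described by role. In all, 5 were lower in AKR/J F1 spleens, 1 was higher and 33 did not pass, with a median of -0.031. Across 18193 genes tested by their brightest probe set, 12.5% passed, 6.17% as lower in AKR/J F1 spleens and 6.29% as higher. Of 12 receptors and surface proteins 0 passed in limma (2 at an unadjusted p under 0.05), with a median of -0.074. The 2 were Gp6, the collagen receptor of platelets (-0.46, adjusted p = 0.0836), and P2ry12, the ADP receptor (0.36, adjusted p = 0.0765). Their differences had opposite signs, and P2ry12 passed with array weights, with the replicate number as a block and without DBA/2J F1 replicate 1. Of 9 granule genes 0 passed in limma (1 at an unadjusted p under 0.05, Thbs1, which encodes the adhesive protein thrombospondin, at -0.41 with adjusted p = 0.0828). Of 2 eicosanoid enzymes 0 passed in limma, and 0 at an unadjusted p under 0.05. Of 8 signalling and cytoskeleton genes 1 passed, Rasgrp2, the exchange factor that activates RAP1 in platelets and is also made in lymphocytes (0.48 ± 0.09, adjusted p = 0.0199). Rasgrp2 passed in 1 of the 6 fits with 1 array left out, that without DBA/2J F1 replicate 1.

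Transcription factors of the lineage had the largest differences of the 5 roles. Of 8 measured, 5 were lower in AKR/J F1 spleens and 3 did not pass, with a median of -1.14. The 5 also act in red cell precursors. Tal1, a basic helix-loop-helix factor of blood formation, stood at 8.19 in AKR/J F1 spleens and 9.88 in DBA/2J F1 spleens (-1.69 ± 0.25, adjusted p = 0.00894). Nfe2, a leucine zipper factor that acts in platelet release, differed by -1.54 ± 0.17 (adjusted p = 0.00307), and Gata1 by -1.50 ± 0.25 (adjusted p = 0.0148). Zfpm1, the GATA1 partner FOG1, differed by -1.14 (adjusted p = 0.0217), and Gfi1b, a zinc finger repressor, by -1.14 (adjusted p = 0.0465), which did not pass with a trended and robust variance (adjusted p = 0.0932 in limma). Fli1 differed by 0.32 (adjusted p = 0.117), Runx1 by 0.33 (adjusted p = 0.160) and Meis1 by -0.067 (adjusted p = 0.864). Without DBA/2J F1 replicate 1, Fli1 passed as higher in AKR/J F1 spleens. The crosses overlapped for Gfi1b. Tal1 and Nfe2 passed with any 1 array left out. Gata1 did not pass without AKR/J F1 replicate 1 or 3 or DBA/2J F1 replicate 2. Zfpm1 and Gfi1b did not pass in these fits or in that without DBA/2J F1 replicate 3. The whole list of 39 had 2 genes past the threshold without AKR/J F1 replicate 1 or 3 or DBA/2J F1 replicate 2, and 3 without DBA/2J F1 replicate 3.

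**Figure D4:**
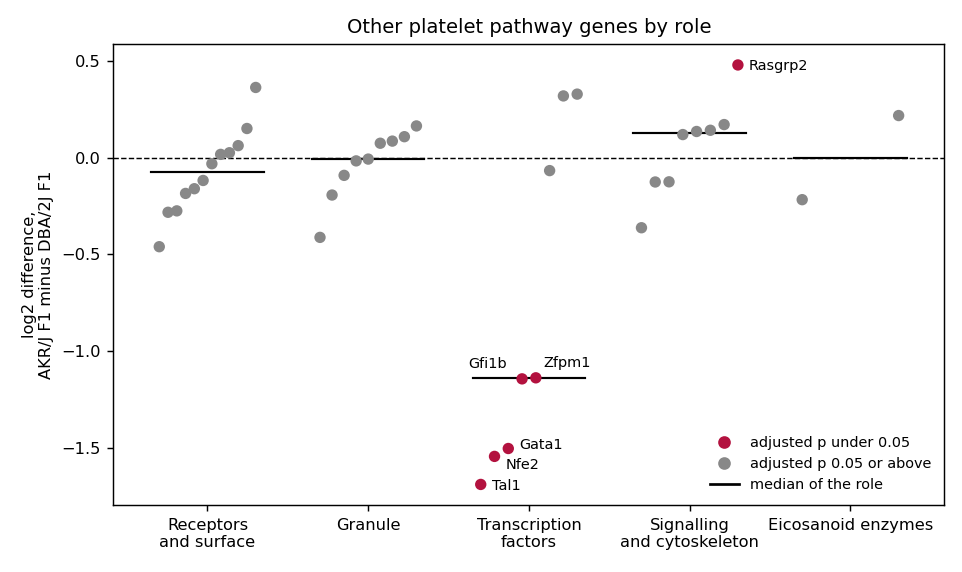
Log2 difference between the AKR/J and DBA/2J F1 spleens for 39 other platelet pathway genes, grouped by role; each point is a gene by its brightest probe set, red where the adjusted p is under 0.05, and the line is the median of the role. Transcription factors reach -1.69, while Rasgrp2 was the 1 gene of the other roles that passed.

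Marker lists of other cell types, also chosen with earlier results of these data known, were set beside the 10 probe sets spleen by spleen. Across genes tested by their brightest probe set, 6.17% passed as lower in AKR/J F1 spleens and 6.29% as higher. All 9 measured erythroid genes passed as lower in AKR/J F1 spleens (median -1.96). Among them were Trim10, a RING finger gene (-2.37), Epb42, a red cell membrane protein (-1.85), and Rhag, the Rh-associated glycoprotein (-2.34). All 8 genes of dividing cells passed as lower as well (median -1.32), among them Ccnb2 (-1.65), Mki67 (-1.60) and Kif11 (-1.32). The mean level of the erythroid genes was 7.68 to 8.28 in AKR/J F1 spleens and 9.59 to 10.39 in DBA/2J F1 spleens, and that of the dividing cell genes 7.24 to 7.79 in AKR/J F1 spleens and 8.31 to 9.23 in DBA/2J F1 spleens. In both lists DBA/2J F1 replicate 3 was the highest spleen and replicate 1 the lowest of that cross, whereas for the platelet probe sets replicate 1 was the highest and replicate 3 the lowest by median. The median deviation of the erythroid genes was 0.51, 1.24 and 1.40 in DBA/2J F1 replicates 1, 2 and 3, that of the lineage's transcription factors was 0.14, 0.79 and 0.93, and that of the platelet probe sets 0.36, 0.12 and -0.048. All 5 measured B and T cell genes had a higher mean in AKR/J F1 spleens, and 4 passed, among them Cd8a (0.59), Cd3e (0.41) and Cd79a (0.36). The mean level of the 5 was 9.91 to 9.99 in AKR/J F1 spleens and 9.49 to 9.62 in DBA/2J F1 spleens. With 1 array left out, 8 or 9 erythroid genes passed. The count of dividing cell genes was 2 without AKR/J F1 replicate 1 or 3 or DBA/2J F1 replicate 2, and 3 without DBA/2J F1 replicate 3. The B and T cell count was 1 without any 1 of these arrays or AKR/J F1 replicate 2. The part of these lists in the platelet values was not tested.

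The lists of stem and progenitor cells, of basophils and mast cells and of pancreatic acinar cells had no call in the main fit. Of 6 stem and progenitor genes 0 passed in limma (1 at an unadjusted p under 0.05, Cd34 at 0.38), and their mean level was 6.63 to 6.68 in AKR/J F1 spleens and 6.56 to 6.66 in DBA/2J F1 spleens. Of 5 basophil and mast cell genes 0 passed in limma (1 at an unadjusted p under 0.05, Mcpt8 at -0.37), with 3 below the 40th percentile of level, Cpa3, Ms4a2 and Fcer1a, and a mean level of 4.05 to 4.20 in AKR/J F1 spleens and 4.13 to 4.42 in DBA/2J F1 spleens. Of 7 pancreatic acinar genes 0 passed in limma, and 0 at an unadjusted p under 0.05, with a median difference of 2.92 and a median deviation of -6.61 in DBA/2J F1 replicate 3. With that spleen the SE was wide (1.81 for Cpa1), so these genes could hardly pass. Without that spleen the median difference was 0.31, and again 0 of the 7 passed in limma. In the same fit 1 of the 10 platelet probe sets passed, again Itgb3 (1421511_at).

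**Figure D5:**
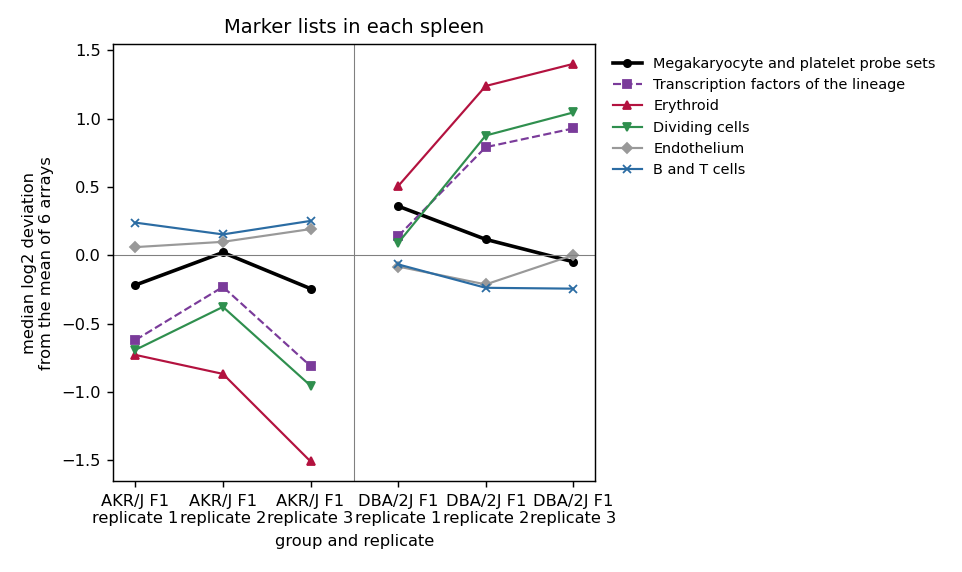
Median deviation of each gene list from its genes' own mean over 6 arrays, on the log2 scale, in the AKR/J F1 spleens (left) and the DBA/2J F1 spleens (right); lines join the values of 1 list within a cross and imply no order of the replicates. The megakaryocyte and platelet probe sets (black) are highest in DBA/2J F1 replicate 1 at 0.36, while the erythroid list is highest in DBA/2J F1 replicate 3 at 1.40.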

How the data were processed

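Spleen RNA of F1 females was labelled with biotin and hybridised to 6 Affymetrix arrays, per the labels' protocols. The values deposited are log2 expression per probe set, already on a common scale. RMA and MAS5 are named in the submitters' processing notes, with no role or version, and which one made these values is unstated in those notes. Strain variants under a probe can change its signal at an equal amount of transcript. The values carry no detection calls, and the number of arrays limits the precision.

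Groups came from the sample titles. After 64 control probe sets were left out, 45037 were fitted with limma 3.58.1 in R 4.3.3 (lmFit and eBayes, no covariate, 4 residual degrees of freedom each), with data.table, version 1.17.8, and, for the robust fit, statmod 1.5.0. Platform annotation gave 1 symbol to 34945 probe sets, and all 10 used here matched their RefSeq gene by gene identifier. Lists used each gene's brightest probe set. The genes and lists were chosen with earlier results of these data known. Named were all 10 probe sets, pathway genes past the threshold and the 3 next by p, up to 3 per other list, and the 5 nearest profiles. Clec1b, Fli1, Runx1, Meis1 and dim basophil genes were named after their values were seen. A simulation with 45037 probe sets changed 67 by 0.5, 67 by 1 and 66 by 2 (log2). The fit recovered 26.9%, 82.1% and 98.5% of these, with 6 false calls. In the data 4688 probe sets passed, far more than were changed there. The recovered shares therefore do not give the sensitivity of the fit to these data. Alternatives were array centring, quantile normalization, a filter on dim probe sets, another variance model, array weights, a replicate block, each array left out, and 2 summaries per gene.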

Additional observations from a re-analysis of the deposited data

How the results depend on the processing

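Of 120 alternative values for single probe sets of the 8 genes, 111 kept their direction and their side of the threshold. The 5 that lost the threshold were all Itgb3 (1421511_at) with 1 array left out, and the 4 that reversed were all Vwf, which did not pass in any fit: 0.026 with arrays centred on their median, 0.067 with array weights, and, with 1 array left out, 0.010 (AKR/J F1 replicate 3) and 0.14 (DBA/2J F1 replicate 1), where the lowest value was -0.095. With 1 summary per gene, the count of platelet genes past the threshold in limma was 0 for the brightest probe set (3 at an unadjusted p under 0.05) and 0 for averaged probe sets (5 at an unadjusted p under 0.05). With 1 array left out, the ranges were 0 to 1 for the member probe sets, -0.37 to -0.19 for their median difference, 2 to 8 for the platelet pathway list, 0 to 2 for endothelium, 2 to 8 for dividing cells, 1 to 5 for B and T cells and 1001 to 4793 for all probe sets. After quantile normalization the endothelial count was 1 and the B and T cell count 2. The stem and progenitor count was 1 after median centring, the filter on dim probe sets, array weights, the replicate block or the brightest probe set per gene. With the replicate block, 4658 probe sets passed, against 4688 without it, and the member count was 1. The replicate numbers share no stated origin. Deviations correlated at 0.20, 0.11 and 0.045 for numbers 1, 2 and 3, and pairs of unlike number ran from -0.16 to 0.056. Each AKR/J F1 replicate correlated most with the DBA/2J F1 replicate of its own number. DBA/2J F1 replicate 3, however, correlated slightly more with AKR/J F1 replicate 2 (0.056) than with its own number. Whether equal numbers share an origin was not tested.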
